A study of Mus musculus with 2 samples.

Results

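Iron enters a developing red cell, is stored or used there, and leaves other cells through a small set of proteins, and 10 mouse genes of this set are described here: Tfrc, Tfr2, Slc11a2, Steap3, Fth1, Ftl1, Ncoa4, Slc40a1, Hamp and Ireb2. They are 10 of the 21698 protein-coding genes considered. The data are EP300 chromatin immunoprecipitation and sequencing (ChIP-seq) of 2 libraries from whole liver of B6NCrl mouse embryos at 14.5 days, with males and females pooled. The labels number them as biological replicates, yet both carry 1 biosample label, a powder of livers collected over several dissections, so the spread between them may be technical. No allele, agent or second age is named, and there is 1 group. EP300 is a histone acetyltransferase and coactivator found at active enhancers and promoters. Peaks are those of the list, called optimal, that the authors filtered with the irreproducible discovery rate (IDR). Not every peak in it was found in each library. Summits of both libraries lay within 100 bp of 84.3% of all optimal peaks, and 274 had a summit of neither. A gene's peaks were the optimal peaks with a summit within 50 kb of any of its annotated transcription start sites (TSSs). The 10 genes had 53 such peaks of the 17043 on the autosomes and X, none of them counted for more than 1 of these genes.

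Erythroid precursors take up iron as transferrin. The transferrin receptor TFRC carries it into endosomes, the reductase STEAP3 reduces the iron there and the transporter DMT1, encoded by Slc11a2, moves it into the cytosol. TFR2 is a second transferrin receptor, which works with the erythropoietin receptor in erythroblasts and in the iron sensing of hepatocytes. Ferritin, built of the heavy chain FTH1 and the light chain FTL1, stores iron, and NCOA4 takes ferritin to lysosomes for iron release. Ferroportin, encoded by Slc40a1, exports iron from macrophages, hepatocytes and red cell precursors. Hepcidin, the hormone that hepatocytes make from Hamp, closes and degrades ferroportin. IRP2, encoded by Ireb2, binds iron-responsive elements in the mRNAs of several of these genes and so acts after transcription.

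The tissue label was read against peaks near marker genes. Of all protein-coding genes, 53.7% had a peak within 50 kb, and the marker counts that follow are read against that share. All 6 erythroid markers had peaks within 50 kb, with a median of 430.0 for the strongest peak (highest 544.1, at Nprl3 near Hba-a1). Peaks lay near 4 of 6 hepatocyte markers, with a median of 22.7 (highest 89.7, in Sik3 near Apoa1). Alb and Afp have the same peak of 22.7 as their strongest, so it enters that median for each. Ttr and Serpina1a were the hepatocyte markers without a peak. Of 7 macrophage markers, 3 had a peak, the strongest 169.1, at Epha8 near C1qa, and Adgre1, Cd163, Vcam1 and Mrc1 had none. In a whole organ, fewer cells of a type and less EP300 per cell cannot be told apart. Peak signals are values given by the authors, used here to describe peaks and to order them inside 1 list. Without read totals, the depth behind each library is unknown.

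The sequences that the results below turn on are those under the strongest peaks and under 3 peaks that share a motif. Each is the forward strand of GRCm38 (mm10) around the peak summit. In the first set, capitals mark GATA motifs, which are the letters GATA after A or T and followed by A or G (AGATAA, for example) on either strand, as bound by GATA1. The Slc40a1 window is shortened to 161 bases, evenly on both sides of the summit. In the Tfrc sequence a STAT motif (TTCNNNGAA) is also in capitals, and in the second Ncoa4 sequence the capitals cover a composite of a partial E-box and a GATA motif (CTG, then 7 or 8 bases, then the GATA motif).
Ncoa4 upstream peak (chr14:32146224-32146424): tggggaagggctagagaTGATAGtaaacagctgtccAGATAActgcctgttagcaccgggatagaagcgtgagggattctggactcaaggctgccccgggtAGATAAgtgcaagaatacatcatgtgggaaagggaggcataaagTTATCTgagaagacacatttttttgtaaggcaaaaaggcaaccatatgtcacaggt
Ncoa4 intronic peak (chr14:32168953-32169153): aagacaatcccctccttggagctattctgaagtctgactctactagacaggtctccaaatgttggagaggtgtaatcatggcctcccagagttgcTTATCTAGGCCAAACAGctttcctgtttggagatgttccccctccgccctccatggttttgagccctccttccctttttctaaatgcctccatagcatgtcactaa
Slc11a2 intronic peak (chr15:100420006-100420206): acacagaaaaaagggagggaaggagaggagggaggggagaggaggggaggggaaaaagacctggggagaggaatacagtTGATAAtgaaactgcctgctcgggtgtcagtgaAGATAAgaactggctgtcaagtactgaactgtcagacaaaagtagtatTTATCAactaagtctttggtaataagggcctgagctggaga
Fth1 peak inside the gene (chr19:9983373-9983573): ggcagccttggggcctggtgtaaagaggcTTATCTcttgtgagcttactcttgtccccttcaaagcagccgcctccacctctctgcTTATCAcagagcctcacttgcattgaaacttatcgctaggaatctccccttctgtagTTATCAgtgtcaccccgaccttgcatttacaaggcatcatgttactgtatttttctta
Slc40a1 promoter peak (chr1:45926526-45926686): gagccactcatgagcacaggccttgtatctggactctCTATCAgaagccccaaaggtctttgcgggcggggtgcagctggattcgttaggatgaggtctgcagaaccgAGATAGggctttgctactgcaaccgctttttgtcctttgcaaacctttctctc
Tfrc intronic peak (chr16:32612142-32612342): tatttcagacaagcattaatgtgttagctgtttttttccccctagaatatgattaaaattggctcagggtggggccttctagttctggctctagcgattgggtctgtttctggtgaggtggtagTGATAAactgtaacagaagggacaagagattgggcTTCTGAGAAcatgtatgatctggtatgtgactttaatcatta
Steap3 intronic peak (chr1:120259301-120259501): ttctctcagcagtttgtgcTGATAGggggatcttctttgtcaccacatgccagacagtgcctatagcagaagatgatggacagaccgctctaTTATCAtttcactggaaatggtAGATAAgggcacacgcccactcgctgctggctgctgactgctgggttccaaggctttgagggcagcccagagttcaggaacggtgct

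The second set shows those peaks within 50 kb of ferritin and ferroportin genes that hold TGACTCAGC on the reverse strand, printed as GCTGAGTCA. These letters contain both the AP-1 or NFE2 core (TGACTCA or TGAGTCA) and the core of the antioxidant element (TGACNNNGC), which BACH1 and NRF2 bind with small MAF proteins. Capitals mark both cores.
Fth1 upstream peak (chr19:9978524-9978724): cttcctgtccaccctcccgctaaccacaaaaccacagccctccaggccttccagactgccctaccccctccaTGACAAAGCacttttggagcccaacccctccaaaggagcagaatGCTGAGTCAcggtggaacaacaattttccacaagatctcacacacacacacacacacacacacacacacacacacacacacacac
Ftl1 upstream peak (chr7:45460901-45461101): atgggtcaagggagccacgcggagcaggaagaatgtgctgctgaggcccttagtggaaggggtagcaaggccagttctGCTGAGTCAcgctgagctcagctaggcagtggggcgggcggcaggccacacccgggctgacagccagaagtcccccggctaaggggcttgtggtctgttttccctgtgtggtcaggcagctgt
Slc40a1 distant peak (chr1:45873353-45873553): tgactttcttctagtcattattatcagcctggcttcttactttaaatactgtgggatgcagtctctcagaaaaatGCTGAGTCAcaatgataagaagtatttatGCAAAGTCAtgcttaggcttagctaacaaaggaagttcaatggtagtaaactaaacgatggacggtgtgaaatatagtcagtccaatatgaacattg

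An EP300 peak lay within 50 kb of 9 of the 10 genes, and Hamp had none. Among all protein-coding genes, 53.7% had a peak in that window. At least 4 peaks lay near 8 of the 10 (18.3% of all coding genes), and a peak with a signal over 100 lay near 9 of the 10 (21.1% of all coding genes). These 2 lines were set after the values were seen. A summit lay within 20 kb of 9 genes (38.6% of all) and within 1 kb of a gene's own TSS in 7 cases (15.5% of all). The median number of peaks was 4.5 for the 10 genes and 1 for all coding genes. The genes were chosen with earlier results of these data known, so the counts are a description with no test. The 10 genes have a median of 6.5 annotated TSSs against 3 for all coding genes, which widens the window. Of the 7812 coding genes with at least 5 TSSs, 71.0% had a peak and 26.4% had at least 4, and all 8 members with at least 5 TSSs had at least 4.

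**Figure D1:**
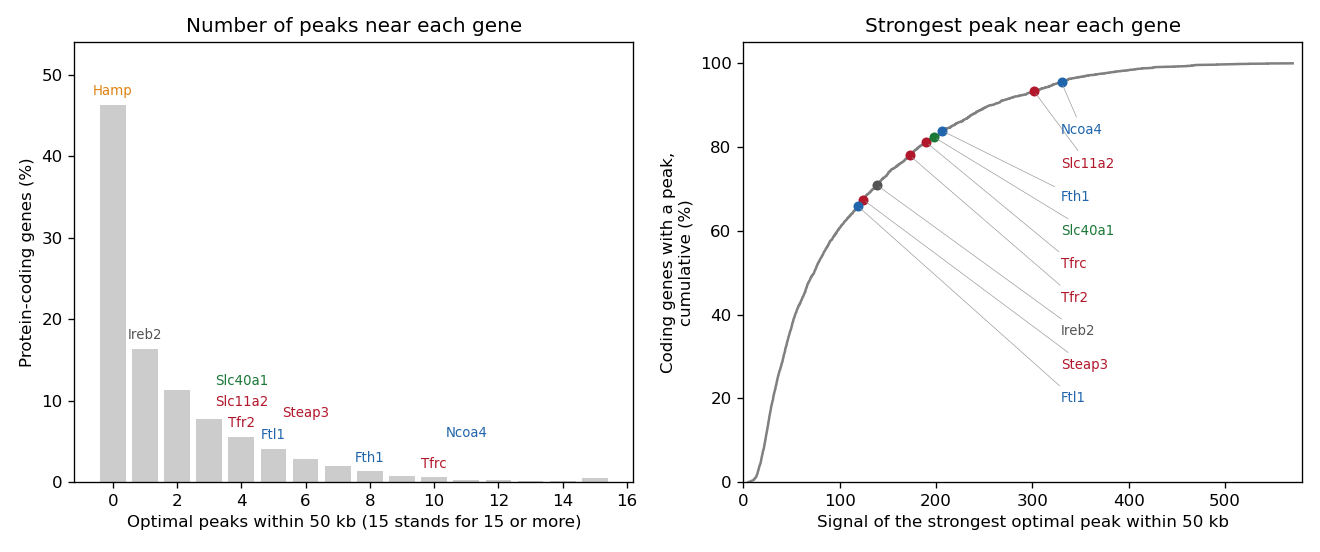
Left, percentage of protein-coding genes (y axis) by number of optimal EP300 peaks within 50 kb of a TSS (x axis, a count), with the 10 iron genes written above their bar. Right, cumulative percentage of coding genes with a peak (y axis) by the signal of their strongest peak (x axis), with the 9 iron genes that have one as points; Hamp has 0 peaks and Ncoa4 the most, 11.

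Uptake genes overlapped with the genes of storage, export and the hormone in the number and the strength of their peaks. The 4 uptake genes (Tfrc, Tfr2, Slc11a2, Steap3) had 6 ± 2.83 peaks per gene (SD over 4 genes), from 4 to 10, and their strongest peaks ran from 124.5 to 301.7 with a median of 181.1. The 5 genes of the other group (Fth1, Ftl1, Ncoa4, Slc40a1, Hamp) had 5.6 ± 4.16 (SD over 5 genes), from 0 to 11. The strongest peaks of the 4 with a peak ran from 119.2 to 330.4, with a median of 202.3. Outside the range of the uptake genes lay Hamp (0) and Ncoa4 (11) in the number of peaks, and Ftl1 (119.2) and Ncoa4 (330.4) in the strongest peak. The SDs are over genes, which are not replicates of a condition.

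Tfrc, the main entry point of iron in erythroblasts, had 10 peaks, more than any other uptake gene. At least as many lay near 1.83% of all coding genes. Of the 10, 6 lay inside the gene. The strongest, on chromosome 16 from 32612121 to 32612365, was intronic, 3322 bp past the 5' end of the gene, with a signal of 189.6 in the optimal list. It had a signal of 91.0 and rank 1467 in replicate 1, and a signal of 101.6 and rank 1292 in replicate 2. Its GATA motif was centred 26.5 bp from the summit and its STAT motif 63 bp from it, as printed above. The promoter peak, 4 bp from a TSS, was weaker, at 72.4, and had no GATA motif but 3 matches to the hypoxia element core (ACGTG or GCGTG), with ranks of 4501 and 3721. That core was in 18 of the 53 peaks (34.0%, against 27.1% of all optimal peaks). The STAT motif was in 2 of the 53 (3.77%, against 6.74%). Peaks of 120.5 and 67.9 lay in Tnk2, a neighbouring kinase gene, 41676 and 46112 bp from the nearest Tfrc TSS and closer to a TSS of Tnk2.

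Slc11a2, which encodes the iron transporter of the endosome, had the strongest peak of the uptake genes. It lay in an intron on chromosome 15 from 100419955 to 100420238 with a signal of 301.7, and ranked 353 in replicate 1 (161.4) and 628 in replicate 2 (140.3). The closest coding TSS, 2041 bp away, is that of Gm5475, and the closest of Slc11a2 is 2863 bp away. As the printed letters show, it held 3 GATA motifs. A second intronic peak, from 100391679 to 100391885 near the 3' end of the gene, had a signal of 139.3 and ranks of 1808 and 2718, and 76.6% of its window is repeat sequence. All 4 of its peaks held a GATA motif, and none lay within 1 kb of a TSS.

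Steap3, the erythroid ferrireductase gene, had 6 peaks, all of them in the conservative list as well, and 5 inside the gene. The strongest, on chromosome 1 from 120259321 to 120259477, had a signal of 124.5 and ranks of 2728 and 2470. By the GENCODE TSSs, of which the nearest is 5854 bp away, this peak is counted as intronic and distal. It lay at -523 bp from a RefSeq start of Steap3, however. It held 3 GATA motifs, of which 1 was part of a composite. A peak 41249 bp into the gene followed, at 94.2, with ranks of 3546 and 3909 and also a composite. No optimal summit lay beyond the 50 kb window out to 150 kb.

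Tfr2 had 4 peaks, 1 of them in the gene. That peak, on chromosome 5 from 137570826 to 137571003, lay 119 bp past an internal TSS, with a signal of 172.7, ranks of 1844 and 1519, and a composite motif. The other 3 lay at promoters of neighbours, 36319 to 45879 bp from a Tfr2 TSS, and none had a GATA motif. At Gnb2, a G protein subunit gene, were 2 overlapping entries with signals of 74.2 and 19.6, the weaker with no summit of replicate 2 within 100 bp, and the third was in Lrch4 (39.3). Tfr2 has 8 other coding genes within 50 kb.

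**Figure D2:**
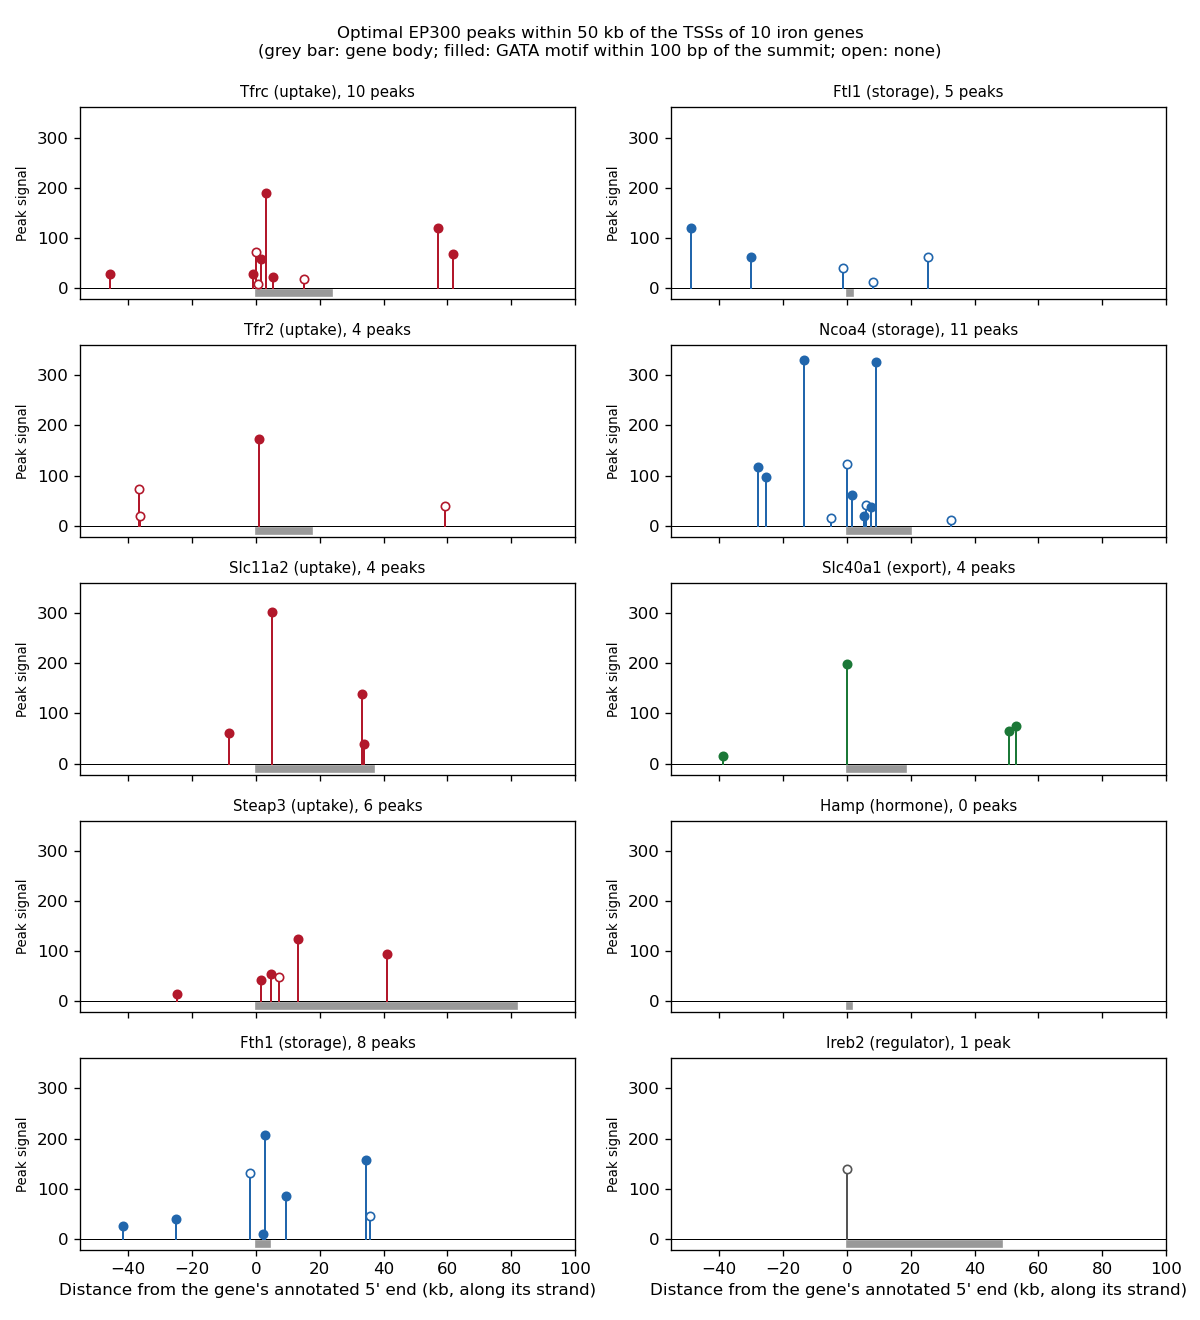
Signal of each optimal EP300 peak (y axis, the authors' peak signal) by its distance from the annotated 5' end of the gene along its strand (x axis, kb) for 10 iron genes, with the gene body in grey, filled circles for peaks with a GATA motif and open circles for peaks without. Ncoa4 has peaks of 330.4 and 325.9 on either side of its 5' end, Slc11a2 has one of 301.7, and the Hamp panel is empty.

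Among the storage genes, Ncoa4, the ferritin cargo receptor, had the 2 strongest peaks in the windows of all 10 genes. The first, on chromosome 14 from 32146165 to 32146477, had a signal of 330.4 and ranks of 337 (162.8) and 288 (170.3). It lay 13541 bp upstream of Ncoa4, in an intron of Msmb, which encodes a secreted protein of the prostate. The closest coding TSS to this peak, 1263 bp away, is that of Msmb. The second, from 32168921 to 32169180 in an intron of Ncoa4, had a signal of 325.9 and ranks of 354 (161.1) and 352 (164.7). Both held a composite motif within 3 bp of the summit, counted from the centre of the match. Ncoa4 had 11 peaks in all, a number reached by 1.26% of coding genes. Its promoter peak, 11 bp from a TSS, had a signal of 122.8 and no GATA motif. Peaks of 117.2 and 98.2 lay 27782 and 25375 bp upstream, where Msmb is the nearest coding gene.

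Fth1, the gene of the ferritin heavy chain, had 8 peaks. The strongest lay inside the gene on chromosome 19 from 9983367 to 9983576, 827 bp past its RefSeq start nearest to the peak, with a signal of 206.8, ranks of 1234 (100.9) and 1190 (106.4) and 3 GATA motifs. A peak of 131.8 from 9978581 to 9978682 lay upstream, 1974 bp before the first annotated TSS and at -4022 bp from that RefSeq start. It ranked 2188 and 2623, had no GATA motif and held the printed GCTGAGTCA. Peaks of 158.0 and 45.2 lay in Rab3il1, 30835 and 32222 bp away. The weaker of these ranked 166053 in replicate 1 (signal 4.02) and 4608 in replicate 2 (38.8), the widest gap in rank among the 47 peaks found in both libraries.

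Ftl1, the gene of the ferritin light chain, had 5 peaks and none inside the gene. The strongest, 119.2 with ranks of 3062 and 2484, lay 48816 bp away in Nucb1 and Tulp2, close to the edge of the window. The next summit outward was 50741 bp away, with a signal of 23.4. For Ftl1 itself the nearest peak was 1117 bp upstream, on chromosome 7 from 45460831 to 45461170, with a signal of 40.1. It ranked 17276 in replicate 1 (9.45) and 8926 in replicate 2 (19.5). It had no GATA motif and held GCTGAGTCA. The remaining 3 lay at promoters of other genes. One of them, at Ruvbl2, had no summit in replicate 1 and ranked 3799 in replicate 2, and another, at Gys1 with a signal of 12.6, had no summit within 100 bp in either library. Ftl1 has 9 other coding genes within 50 kb, the most of the 10 genes.

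Slc40a1, the iron exporter gene, had its strongest peak at its promoter, 83 bp before a TSS, on chromosome 1 from 45926510 to 45926717. The signal was 197.9, with ranks of 1424 (92.6) and 1129 (109.3), and it held 2 GATA motifs, 1 of them in a composite. Further peaks lay 49856 and 47451 bp from the nearest TSS on the 3' side of the gene, with signals of 74.3 and 65.4 and ranks of 4562 and 4356 and of 4816 and 6262. Both lay closer to a coding TSS of Gm5269, at 16625 and 14220 bp. The farther of these peaks from Slc40a1 is the one with GCTGAGTCA, and it also held 2 GATA motifs. It lies just inside the window, and the next summit outward was 62758 bp away, with a signal of 20.3. All 4 Slc40a1 peaks had a GATA motif. Of the 7 macrophage markers, of a cell type that exports iron, C1qa (2 peaks, strongest 169.1), Cd68 (3 peaks, 33.1) and Csf1r (1 peak, 29.1) had peaks within 50 kb. Adgre1, Cd163, Vcam1 and Mrc1 had 0. No peak of C1qa, Cd68 or Csf1r lay within 20 kb of a TSS of that gene. Their strongest peaks, 31837, 44148 and 49256 bp away, were nearest to Epha8, Tnfsfm13 and Hmgxb3. The Csf1r peak had no summit of replicate 1 within 100 bp. The 6 erythroid markers all had peaks, as given above. The part of each cell type in the Slc40a1 signal was not tested.

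Ireb2, the gene of IRP2, had 1 peak, at its promoter 93 bp before a TSS on chromosome 9 from 54863619 to 54863770. Its signal was 138.7, with ranks of 2653 (60.8) and 2047 (77.3), and it had none of the 9 motifs searched. The next optimal summit was 93634 bp away.

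Hamp, the hepcidin gene, on chromosome 7 from 30942368 to 30944032, had no optimal summit within 50 kb and none within 150 kb, which was so for 26.7% of coding genes. There are 5 other coding genes within 50 kb. The library and pooled lists of 300000 entries were searched as well. The best entry within 50 kb of Hamp ranked 59384 in replicate 1 (signal 5.52) and 35438 in replicate 2 (6.80). For each of the other 9 genes, the best entry in the same window ranked 3062 or better in replicate 1 and 2484 or better in replicate 2. Those 9 have an optimal peak and Hamp has none, so the gap is largely set by that difference and is not a separate finding. Hamp also has 1 annotated TSS, which narrows its window. In the pooled list the best entry near Hamp ranked 26773 (11.5), and it lay in Usf2, 10113 bp away. Pooled rank alone does not set the optimal list, since the weakest Tfrc peak in it has a pooled rank of 88441 (7.48 in the optimal list). The pooled entry inside the Hamp gene itself ranked 298709, with a signal of 5.21. Below is the RefSeq promoter sequence of Hamp, 250 bases before its start (GRCm38.p6, reverse strand, read towards the gene), shown as the locus without a peak. Capitals mark a BMP element (GGCGCC) and a STAT motif, the letters through which BMP and interleukin-6 signals are known to induce hepcidin.
Hamp promoter (chr7:30944030-30944279): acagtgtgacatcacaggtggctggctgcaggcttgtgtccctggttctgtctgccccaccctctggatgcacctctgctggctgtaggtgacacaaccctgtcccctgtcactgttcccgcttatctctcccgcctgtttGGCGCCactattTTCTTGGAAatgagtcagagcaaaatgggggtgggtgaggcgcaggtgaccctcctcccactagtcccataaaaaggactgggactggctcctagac

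The same window also held a GATA motif, 3 CACCC matches and an AP-1 core, which overlap neither of the printed motifs. Of 32851 RefSeq promoter windows of this length, 9.59% held GGCGCC, 7.02% the STAT motif and 26.5% a GATA motif. A match is a description of the letters and not evidence of a bound site.

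The 10 genes' peaks recurred in both libraries about as often as optimal peaks in general. A match at any rank among a library's 300000 entries counted, such as rank 166053 in replicate 1 for a Rab3il1 peak near Fth1. Summits of both libraries lay within 100 bp of 47 of the 53 (88.7%, against 84.3% of all optimal peaks), 22 of 24 for uptake genes and 24 of 28 for storage and export genes. Of the 6 others, the weakest peaks inside Tfrc (7.48) and Fth1 (10.5) had a summit in replicate 2 alone, as had the Ruvbl2 peak. The peaks at Gnb2 and Timm23 had a summit in replicate 1 alone, and the Gys1 peak had neither. The 2 ranks were within 2 times of each other in 40 of the 47 (85.1%, against 82.8% of all optimal peaks found in both). Of the 16 peaks with a signal over 100, all 16 were found in both libraries, as were 3396 of the 3399 such peaks in the whole optimal list. Ranks were within 2 times in 15 of the 16 (93.8%, against 95.8% of those 3396). The peak outside that limit was the Tnk2 peak of the Tfrc window, with ranks of 1835 and 3740. Of the 53 peaks, 45 were also in the conservative list, as were 13369 of all 17043 optimal peaks.

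**Figure D3:**
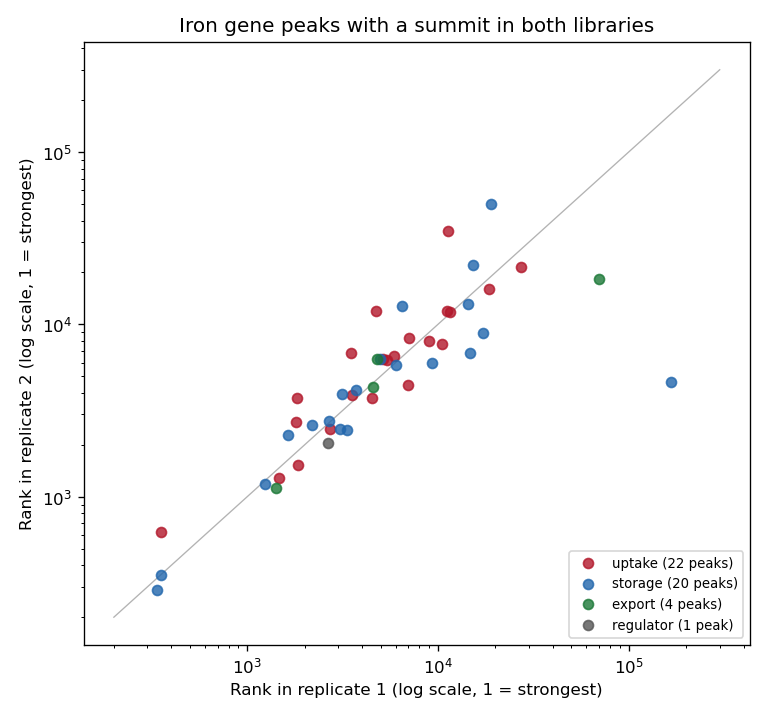
Rank in replicate 2 (y axis) against rank in replicate 1 (x axis), both on log scales, for the 47 of 53 iron gene peaks with a summit of both libraries within 100 bp; each point is a peak, coloured by the role of its gene, and the line marks equal ranks. Most points lie near the line, and the peak in Rab3il1 near Fth1 lies far below it at ranks of 166053 and 4608.

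Of the 53 peaks, 24 (45.3%) had a summit within 1 kb of some TSS, against 26.2% of all optimal peaks. Since the genes were used to choose the peaks, nearness to a TSS is partly set by the rule and is not a finding. Introns held 14, intergenic sequence 11 and noncoding exons or untranslated regions 4. Of the 24, the strongest was that inside Fth1 (206.8), followed by those of Slc40a1 (197.9) and Tfr2 (172.7). The median signal was 60.7 for the 53 peaks and 38.5 for all optimal peaks.

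GATA motifs were about as common as elsewhere in the optimal list. A GATA motif lay within 100 bp of the summit in 36 of 53 peaks (67.9%, against 74.7% of all optimal peaks), in 17 of 24 near uptake genes and in 19 of 28 near storage and export genes. Away from promoters it was present in 25 of 29 (86.2%, against 86.3%), and at promoters in 11 of 24 (45.8%, against 42.1%). All 13 distal peaks of the uptake genes held it, and 12 of 16 distal peaks of the storage and export genes did. The 4 distal peaks without it were the upstream peaks of Fth1 and Ftl1 with GCTGAGTCA, a Rab3il1 peak near Fth1 and a peak of 16.6 upstream of Ncoa4. The composite was found in 15 of 53 (28.3%, against 22.4%), and CACCC, the core that KLF1 binds, in 30 (56.6%, against 44.7%). The GGCGCC element, given above for Hamp, was in none of the 53 and in 3.64% of all optimal peaks.

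The antioxidant element core was found in 7 of the 53 peaks (13.2%, against 10.3% of all optimal peaks), 6 of them near storage or export genes and 1 near Tfr2. Several lay closer to other genes. The Tfr2 one lay 20 bp from a TSS of Gnb2. Among the 6, one near Ftl1 lay 962 bp from Dhdh, one near Ncoa4 lay 663 bp from Timm23, and the Slc40a1 one was nearest to Gm5269. The longer TGACTCAGC was looked for after the motif counts were seen, so its counts are a description. It was present in 3 of 28 peaks of storage and export genes and in 0 of 24 of uptake genes, against 1.72% of all optimal peaks (293 of 17043). Those 3 lie in the windows of Fth1, Ftl1 and Slc40a1, the last of them closer to a TSS of Gm5269. The motif was centred 18 to 21 bp from the summit in each. Only the Slc40a1 peak also held a GATA motif.

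**Figure D4:**
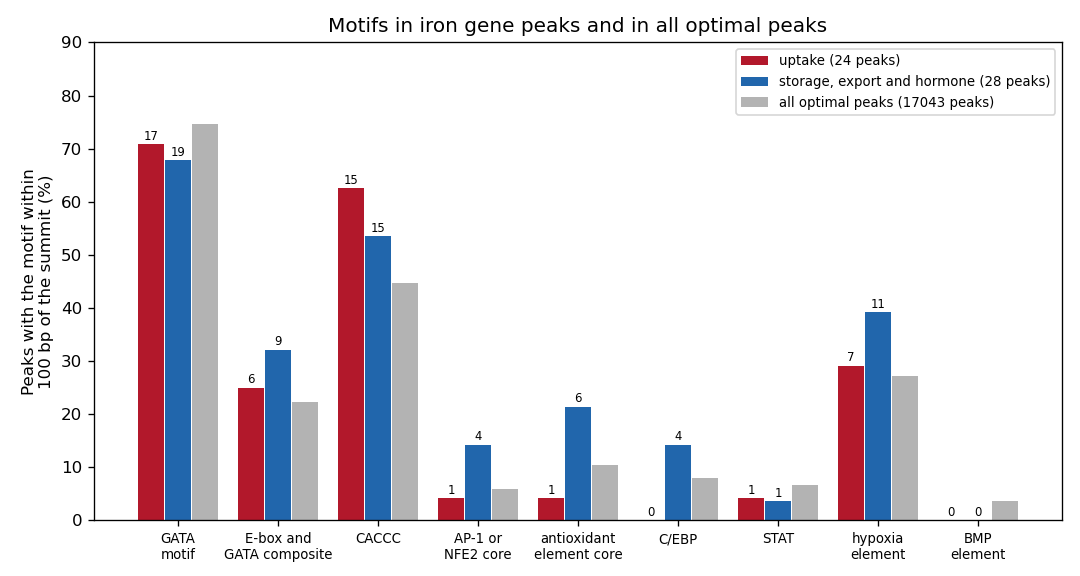
Percentage of peaks with each of 9 motifs within 100 bp of the summit (y axis) by motif (x axis), for peaks near uptake genes (red), near storage, export and hormone genes (blue) and all optimal peaks (grey); numbers above bars are peaks. GATA motifs are in 17 of 24 and 19 of 28, and the antioxidant element core in 1 and 6.

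Other genes of iron handling, from a list of 44, had a peak within 50 kb in 27 cases, a share near the 53.7% of all coding genes, and the median of 1 peak per gene was that of all coding genes. The subgroup counts that follow are read against the same 53.7%. In uptake, reduction and the endosome, 7 of 12 had a peak. The strongest were those of Snx3 (295.1), a sorting nexin that recycles the transferrin receptor, Slc39a8 (209.5), a metal ion importer, and Mcoln1 (205.8), a lysosomal channel. The Snx3 peak lay nearer to Nr2e1 and the Mcoln1 peak nearer to Pnpla6. In sensing and hepcidin control, 9 of 15 had a peak. Smad6, an inhibitor of BMP signals, led with 297.5, followed by Tmprss6 (191.8, nearer to Mpst), a protease that lowers hepcidin, and Hfe (176.6, at a histone gene promoter). Erfe, the erythroblast hormone gene that lowers hepcidin, had 1 peak, of 44.4, and is named after its value was seen. The other 6 had none.

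In cytosolic iron control 3 of 5 genes had a peak, the strongest near the iron chaperone genes Pcbp1 (124.1) and Pcbp2 (53.3), and then near Aco1 (36.3), which encodes IRP1. Fbxl5 and Ftmt had none. Among ferroxidases, Hephl1 had a peak (151.1) and Cp and Heph had none. In heme release and recycling 7 of 9 had a peak, led by Blvrb (144.1, at its promoter), a biliverdin reductase gene, Hmox1 (118.9), the heme oxygenase gene, and Slc48a1 (64.5, in Rapgef3), a heme transporter gene. At Hmox1, peaks lay 9644 and 3861 bp from the nearest TSS, with signals of 118.9 and 24.4, and both held TGACTCAGC and no GATA motif. As background, Hmox1 is known for a pair of upstream enhancers bound by BACH1 and NRF2. TGACTCAGC was in 4 of the 109 peaks of these 44 genes (3.67%), the other 2 near Slc48a1 and Exoc6.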

How the data were processed

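The authors' deposited peak lists on mm10 were used: 300000 peaks for each library, 300000 for both pooled, and the IDR-filtered optimal (17055) and conservative (15728) lists made from these. According to the deposited listings, the authors made each library's list from 1 filtered alignment file and 1 control file. Neither aligner, peak caller nor IDR threshold is given in the sources used here. The signal of each peak, as deposited by the authors, is never negative and is on each list's own scale.

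Summits on the 19 autosomes and X were set on GENCODE vM21 TSSs with Python 3.11.15, pandas 2.3.3 and numpy 2.4.6. Sequence came from GRCm38, which is mm10. Coordinates are printed counted from 1. Library summits were matched within 100 bp and ranked by signal. Each motif was searched on both strands in the 201 bases around the summit. The text spells out 8 of the 9, and the other is the C/EBP motif TTGCNNAA; composite and GATA matches overlap by construction.

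The members, groups and lists were chosen with earlier results of these data known. All 10 genes are named. From each subgroup of other iron genes the 3 with the strongest peak are named, and Erfe and the members of small counts are named besides. The lines of signal over 100, 4 peaks and 5 TSSs, the 150 kb window, TGACTCAGC and the printed peaks were chosen after values were seen. There is 1 group, so no test was made. Alternatives were other peak lists, windows of 20 kb and 100 kb, coding transcripts alone, the nearest gene, distal peaks and other promoter and motif windows. Gene assignment and motif search recovered all 200 planted peaks and all 100 planted motifs in data made for that check. RefSeq promoter entries existed for 8 of the 10 symbols.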

Additional observations from a re-analysis of the deposited data

How the results depend on the processing

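Of 117 recalculations over 12 counts and medians, 101 stayed within 1.5 times of the value in the text or, for medians of ranks, within 1 SD of the values from each library alone. The 53 peaks became 33 within 20 kb, 33 with each peak given to its nearest coding gene and 29 without promoter peaks. Under those 3 settings the storage, export and hormone genes went from 5.6 peaks per gene to 3.2, 2.8 and 3.2, and without promoter peaks the uptake genes went from 6 to 3.25. GATA motifs were in 21 of the 33 peaks within 20 kb. Promoter peaks numbered 14 above the median signal and 37 with a promoter of 2.5 kb, in place of 24. The median rank of the strongest peak, as a percentage of the list with Hamp set at 100, was 8.95 for uptake genes and 7.62 for the others. For uptake genes it was 17.9 above the median signal, 5.53 within 100 kb, 11.6 by nearest gene and 15.97 without promoter peaks, and for the others 15.2 above the median signal and 21.96 without promoter peaks. The order of the 2 groups turned within 100 kb (5.53 against 7.11) and without promoter peaks. Leaving out promoter peaks removed every peak of Tfr2 and Ireb2, so that 7 of the 10 genes kept a peak. With the top peaks of either library alone, 9 of the 10 genes and 53 peaks were again counted, with 6.25 to 6.5 peaks per uptake gene, 5.2 to 5.4 per gene of the other group and GATA motifs in 34 to 37. Hamp had no peak under any of these alternatives. The letters TGACTCAGC were in 3 peaks in every peak list tried and in 2 within 20 kb, an alternative chosen after seeing the data. For these letters no count was kept within 100 kb, with coding transcripts alone or by the nearest gene. By the nearest coding gene, the Slc40a1 peak with them would go to Gm5269. No paired analysis was possible because the 2 libraries form 1 group. Depth is unknown, so a missing peak says only that none was called.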
